A study of Mus musculus with 2 samples.

Results

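Extracellular matrix is cut by the matrix metalloproteinases (Mmp) and the ADAMTS proteases, held in check by the tissue inhibitors of metalloproteinases (Timp), and cross-linked by lysyl oxidase and its relatives (Lox, Loxl). These families, with the ADAMTS-like proteins (Adamtsl), were followed in mouse heart as the genes whose symbol is Mmp or Adamts with digits, Timp, Adamtsl or Loxl with 1 digit, or Lox. The RefSeq table used for names held 54 such genes, and 53 of them were read by at least 1 probe out of 21364 named genes in all. Mmp27 had no probe under its name. Total RNA of 2 heart samples was measured, each on its own 1-colour Agilent array. The control was labelled as of C57BL6 background. The other sample, labelled with the same strain background, carried the transgene Tg (CAG-WRN*K577M) 5025Wcl/Mmmh on a genotype written as B6.Cg, and is called WRN-K577M here. That transgene expresses a substituted form of WRN, a RecQ DNA helicase, from the CAG promoter, which is active in nearly all cell types. The sources used here give no age, no sex, no meaning for the letters ND in both titles, and no word on whether a sample was a single heart or a pool. The series asks which signals go with remodelling of the heart in this line.

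Most matrix metalloproteinases are secreted as inactive proenzymes that have to be cut open, and each Timp blocks the active site of several of them. ADAMTS proteases share a metalloproteinase domain followed by thrombospondin repeats, while the ADAMTS-like proteins keep the repeats and have no protease domain. Lysyl oxidases oxidise lysines of collagen and elastin, so that the chains become covalently joined. In the heart these enzymes and inhibitors come mainly from fibroblasts, vascular cells and leukocytes, with Timp4 known as an inhibitor abundant in heart muscle.

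A level is the log2 processed signal minus the 75th percentile of the array. Subtracting the control level from that of WRN-K577M gives the log2 ratio. A gene is called measured where 1 probe was well above background on both arrays by the scanner software's flag, and it takes its brightest such probe. Each value has behind it 1 array per group, so there is no replicate check and no test. The error printed with a ratio is the software's own estimate in log2 units, and it covers measurement only. The log2 ratios of spots of 1 probe spread with an SD of 0.11, and 2 SD correspond to 1.17-fold. This was taken over 255 probes printed repeatedly with every spot well above background on both arrays, so it leaves out dim probes. The software's error of the measured members ran from 0.20 to 0.39, the highest for the dim Loxl4. In bulk tissue, fewer cells of a type and less RNA per cell cannot be told apart.

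Of the 53 members, 31 were measured, 5 were well above background in the control alone, none in WRN-K577M alone, and 17 on neither array. Among the 31 measured members, 23 had a ratio below 0 and 8 above it, and the median was -0.52. Over all 13999 measured genes the median was 0.020 and 47.6% lay below 0. The members at least 2-fold lower in WRN-K577M numbered 8 (25.8%): Adamts7, Adamtsl2, Loxl2, Mmp2, Adamts9, Adamts8, Mmp15 and Adamts4. The same held for 3.45% of all measured genes. None was as much higher, against 1.94% of all measured genes, and 5.39% of all genes differed by 2-fold in either direction. The families differed in their medians: -0.91 for 10 Adamts genes, -0.46 for 8 Mmp genes, -0.45 for 5 lysyl oxidases, -0.44 for 4 Adamtsl genes and 0.30 for the 4 Timp genes. Differences between the families were not tested.

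**Figure D1:**
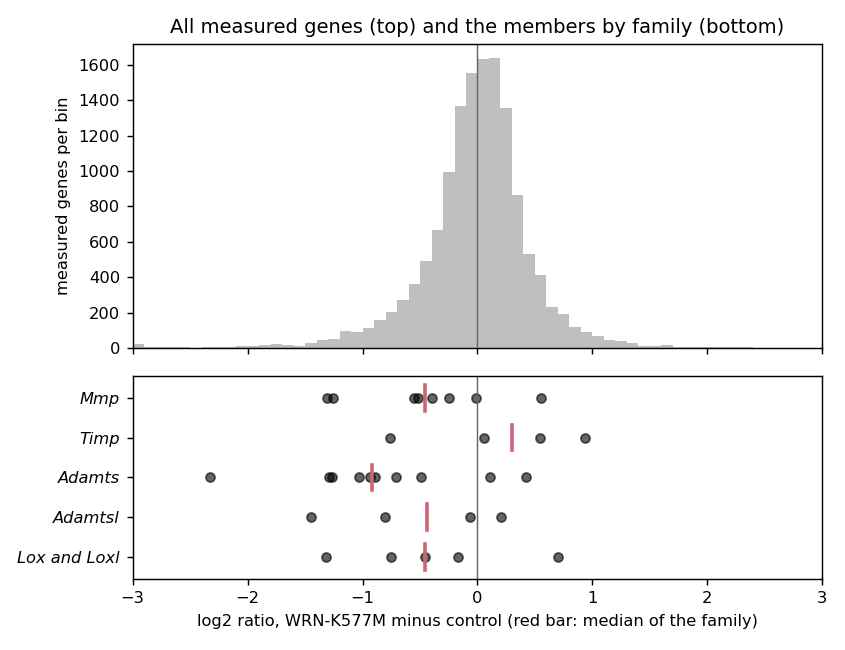
The upper panel counts all measured genes by their log2 ratio (x axis, WRN-K577M minus control) in bins of width 0.1, with values past 3 in either direction drawn in the outermost bin. The lower panel marks each of the 31 measured members as a point, with the family median as a red bar. The Adamts points lie mostly left of 0 around a median of -0.91, and the Timp median lies at 0.30.

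**Figure D2:**
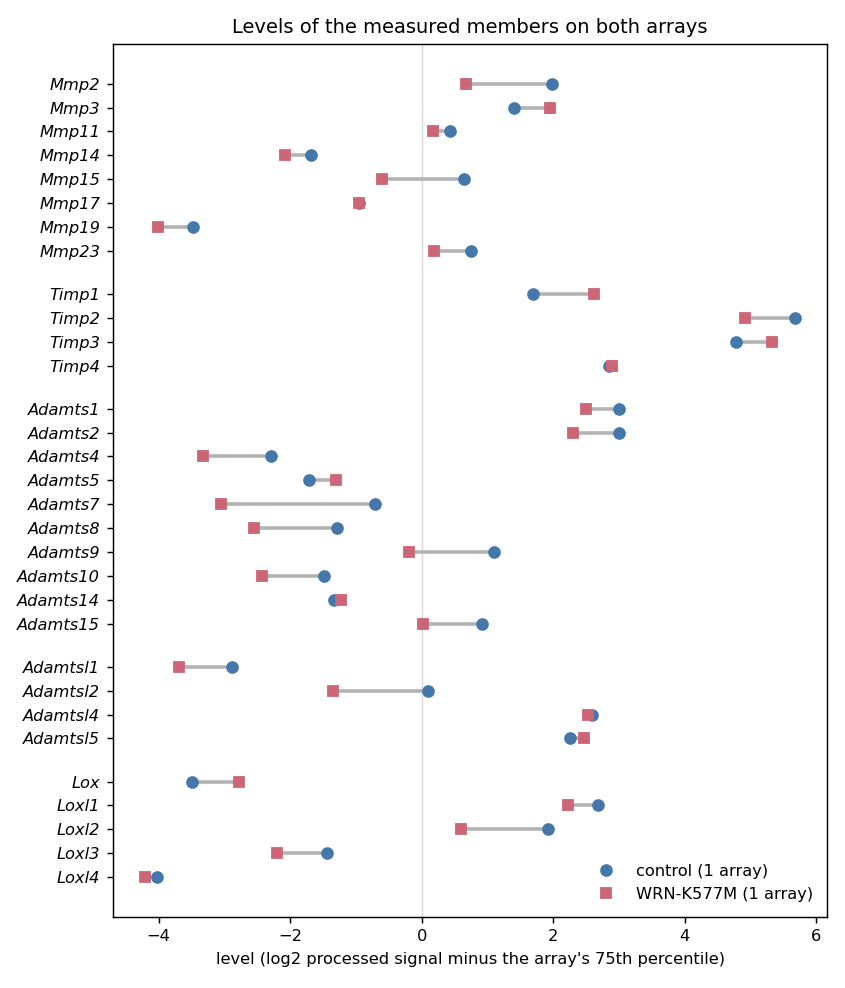
Level of each of the 31 measured members (x axis, log2 units, with 0 at the 75th percentile of its array) in the control (blue circles) and the WRN-K577M sample (red squares), joined by a grey line. The square lies left of the circle for 23 members, with the longest line for Adamts7. Probes bind with different strength, so levels of different genes are not to be set against each other.

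The gelatinases cut denatured collagen and basement membrane collagen. Mmp2, gelatinase A, read 1.98 in the control and 0.67 in WRN-K577M, a log2 ratio of -1.31 (error 0.20) or 2.48-fold lower. Its cell-surface activators are among the membrane-type enzymes. Mmp14, the main activator, read -1.69 in the control and -2.08 in WRN-K577M, a ratio of -0.39 (error 0.22). Mmp15 was 2.39-fold lower, with 0.65 in the control and -0.61 in WRN-K577M. Mmp17, which is anchored in the membrane by a lipid, was near equal at -0.95 and -0.96. So the gelatinase and 1 of the 3 measured membrane-type enzymes were at least 2-fold lower (3.45% over all measured genes). The other membrane-type enzymes measured lay within 1.5-fold. Normexp background correction was an alternative setting. It starts from the median spot and background signals instead of the processed signal, corrects for background by a model and adds a constant. After normexp, Mmp15 had a ratio of -0.98, short of 2-fold, and Mmp14 of -0.091. Mmp24, also membrane-type, was above background in the control alone and read near equal levels of -4.46 and -4.48, so it has no fold.

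The stromelysin Mmp3 cuts proteoglycans and fibronectin and activates other metalloproteinases. Mmp3 was the sole measured gene of the Mmp family with a ratio above 0, although Mmp17 and Mmp19 changed sign under other processing settings. Its level was 1.40 in the control and 1.96 in WRN-K577M, a ratio of 0.55 (error 0.20) or 1.47-fold higher. Mmp11, stromelysin 3, which furin activates inside the cell, had a ratio of -0.25 by its brighter probe and -0.43 by its other probe. Mmp23, a membrane-bound enzyme released by proprotein convertases, read 0.74 in the control and 0.19 in WRN-K577M. Mmp19 was dim on both arrays, at -3.48 and -4.00. Those 2 ratios were -0.55 and -0.52, both inside 1.5-fold.

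Mmp3 belongs to a run of 10 Mmp genes on chromosome 9, in the order Mmp13, Mmp12, Mmp1b, Mmp3, Mmp1a, Mmp10, Mmp8, Mmp27, Mmp20, Mmp7. The rule takes 8 of these genes, and 7 had a probe. Mmp3 alone was measured on both arrays, Mmp8 was above background in the control alone, and 5 (Mmp7, Mmp10, Mmp12, Mmp13 and Mmp20) on neither array. The promoters of 6 of them carry the same pair of motifs in the same order, TGANTCA and then TATAAA, the letters of the TATA box. TGANTCA is a loose form of the AP-1 motif that takes any middle letter, and it reads the same on both strands. Both strands were searched in the RefSeq table of promoters on build GRCm38.p6, 250 bases before to 50 after each start, and 34 of the 53 probed members had an entry. Of all 32851 promoters in that table, 7.81% hold TGANTCA, 13.6% hold TATAAA, and 0.581% hold TGANTCA ahead of TATAAA on the forward strand. The 6 members with that order were all from this run, and no other member in the table held TGANTCA in its window. For Mmp12 and Mmp7 the table lists 2 starts each, and the window of the other start holds neither motif, as does that of Mmp27. These windows are shown because 6 genes of the run share the letters while Mmp3 alone was measured on both arrays, and Mmp8 is shown as the one above background in the control alone. Each line gives 100 bases before the start and 20 from it on, plus strand, 5′ to 3′, with the motifs in capitals, and the base at the start counted as 1.
Mmp3, measured on both arrays, chr9:7445722-7445841: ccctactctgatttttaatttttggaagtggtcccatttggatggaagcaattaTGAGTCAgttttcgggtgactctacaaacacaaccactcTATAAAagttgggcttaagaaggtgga
Mmp10, on neither array, chr9:7502242-7502361: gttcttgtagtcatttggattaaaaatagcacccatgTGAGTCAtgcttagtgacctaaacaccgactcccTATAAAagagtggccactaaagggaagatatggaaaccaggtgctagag
Mmp12, on neither array, chr9:7347274-7347393: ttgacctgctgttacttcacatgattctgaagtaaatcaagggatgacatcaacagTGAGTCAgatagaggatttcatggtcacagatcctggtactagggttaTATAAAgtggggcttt
Mmp13, on neither array, chr9:7272414-7272533: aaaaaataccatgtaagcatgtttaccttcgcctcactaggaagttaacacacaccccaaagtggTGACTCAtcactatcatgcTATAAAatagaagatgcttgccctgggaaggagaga
Mmp20, on neither array, chr9:7628131-7628250: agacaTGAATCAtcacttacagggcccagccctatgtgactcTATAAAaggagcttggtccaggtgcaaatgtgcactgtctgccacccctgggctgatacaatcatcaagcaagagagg
Mmp7, on neither array, chr9:7691990-7692109: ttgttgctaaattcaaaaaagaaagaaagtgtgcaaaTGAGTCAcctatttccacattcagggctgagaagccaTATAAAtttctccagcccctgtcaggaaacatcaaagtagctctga
Mmp8, above background in the control alone, chr9:7558329-7558448: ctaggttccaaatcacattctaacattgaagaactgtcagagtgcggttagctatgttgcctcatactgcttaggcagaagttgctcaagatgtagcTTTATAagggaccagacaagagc

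The first base of TGANTCA lies at -46 in Mmp3, -63 in Mmp10 and Mmp7, -44 in Mmp12, -35 in Mmp13 and -95 in Mmp20. In the stretches printed the first base of TATAAA lies at -7 in Mmp3, -29 in Mmp10, 5 in Mmp12, which is past the start, -16 in Mmp13, -58 in Mmp20 and -26 in Mmp7, so its distance to the start differs between these genes. The middle letter of TGANTCA is G in Mmp3, Mmp7, Mmp10 and Mmp12, C in Mmp13 and A in Mmp20. The capitals in Mmp8 are TATAAA read on the minus strand, and that window holds no TGANTCA. A match of letters is a description of the sequence and says nothing of which factor was bound in these samples.

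The secreted products of neutrophils in these families are Mmp8, the neutrophil collagenase, and Mmp9, gelatinase B, both stored in granules. Mmp8 read -2.13 in the control, and its WRN-K577M signal of -4.49 did not pass the background flag, which makes it at least 4.89-fold lower. Such a bound sets the level on the brighter array against the lowest level at which a probe was well above background on the other array, which was -4.42 for WRN-K577M and -4.73 for the control, or the probe's own level there where that is higher. Mmp9 was printed at 10 spots, 1 of which was an outlier and was left out. Its remaining 9 spots read -3.75 ± 0.14 in the control (SD, n = 9 spots; range -4.01 to -3.59) and -6.27 ± 0.57 in WRN-K577M (range -6.75 to -5.11). All 9 control spots and none of the WRN-K577M spots were well above background. These spots are repeats on 1 array per group, and the software's error for this probe was 1.14. The bound for Mmp9 is at least 1.59-fold lower, small because the control level is itself close to background. Beside these genes, the neutrophil calgranulins S100a8 and S100a9 were 31.5-fold lower each, from levels of 3.03 and 4.99 in the control to -1.95 and 0.013 in WRN-K577M. Retnlg was at least 30.0-fold lower and Mpo, close to background, at least 1.02-fold, while Elane had a ratio of 0.24 and Camp of -0.41. Over the 8 neutrophil markers, 4 were measured, 3 of them below 0, and 2 were above background in the control alone. The log2 of the summed level of those 6 was 5.45 in the control and 1.79 in WRN-K577M. In the control that sum rests most on S100a9 and S100a8. The part of neutrophils in the values of Mmp8 and Mmp9 was not tested.

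**Figure D3:**
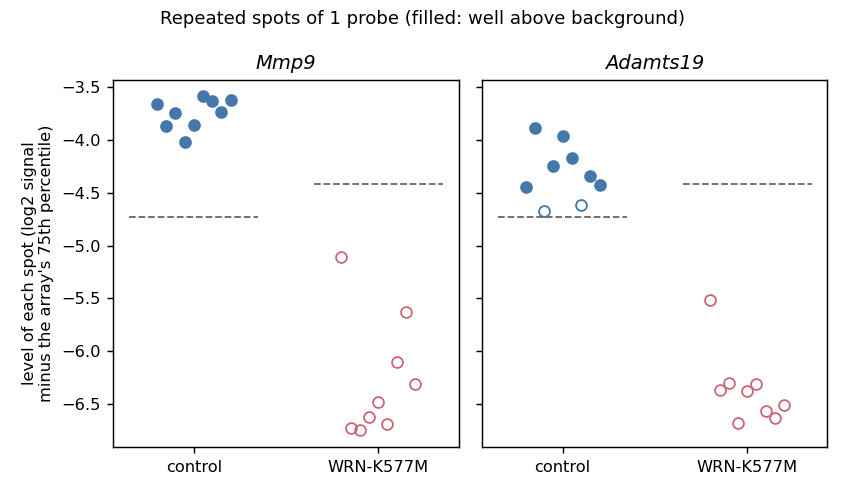
Level of each of the 9 spots used for Mmp9 (left) and for Adamts19 (right) on the control and the WRN-K577M array, on a log2 axis. Filled points were well above background, and dashed lines mark the lowest level at which any probe on that array was so (-4.73 and -4.42). For both genes all control spots lie above all WRN-K577M spots, and no WRN-K577M spot is filled.

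The inhibitors went in both directions. Timp1, the inducible inhibitor that blocks most secreted metalloproteinases, read 1.69 in the control and 2.62 in WRN-K577M, a ratio of 0.93 (error 0.20) or 1.91-fold higher, the highest ratio of the 31 measured members. Timp3, which binds to the matrix and also blocks ADAMTS4, ADAMTS5 and the sheddase ADAM17, was 1.46-fold higher, with 4.79 in the control and 5.33 in WRN-K577M. Timp2, which joins MMP14 at the cell surface in the activation of MMP2, was 1.69-fold lower by its brighter probe, with 5.68 in the control and 4.92 in WRN-K577M. Its second probe gave a ratio of -0.51. Timp4 was near equal at 2.84 and 2.90. Of the parts of that activation complex, Mmp2, Mmp14 and Timp2 had ratios of -1.31, -0.39 and -0.76, and Mmp2 alone was at least 2-fold lower. A ratio below 0 was also found for 47.6% of all measured genes, and Mmp14 had -0.091 after normexp.

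The ADAMTS proteases that cut versican and aggrecan, the hyalectans, gave 6 measured members of 7. A ratio below 0 was found for 5 of these, and for 47.6% of all measured genes. Adamts9 read 1.1 in the control and -0.19 in WRN-K577M, a ratio of -1.29 (error 0.20) or 2.45-fold lower. Adamts8 was 2.41-fold lower by its brighter probe, with -1.28 in the control and -2.55 in WRN-K577M, while its dimmer probe was above background in the control alone and read -3.94 and -4.20. Adamts4 was 2.05-fold lower, from -2.29 to -3.32, with a ratio of -1.03 (error 0.26). After normexp the ratios of Adamts4 and Adamts8 were -0.24 and -0.66. Adamts15 had 0.92 in the control and 0.022 in WRN-K577M, a ratio of -0.89, and Adamts1, also known as METH-1, had 3.0 and 2.50, a ratio of -0.49. Adamts5 alone in this set was higher, from -1.72 to -1.30, and its 2 probes gave ratios of 0.42 and 0.38. Adamts20 was on neither array. Adamts15 and Adamts8 are neighbours on chromosome 9 in the gene order of the RefSeq table, with ratios of -0.89 and -1.27. Adamts1 and Adamts5 are neighbours on chromosome 16, with ratios of -0.49 and 0.42, on opposite sides of 0.

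The lowest ratio of the 31 measured members belonged to Adamts7, which cuts the cartilage oligomeric matrix protein COMP. Its level was -0.71 in the control and -3.04 in WRN-K577M, a ratio of -2.33 (error 0.24) or 5.03-fold lower, and -1.08 after normexp. Its substrate gene Comp was 3.33-fold lower, with 0.83 in the control and -0.91 in WRN-K577M. Adamts12, which also cuts COMP, was on neither array. Among the procollagen N-proteinases, which remove the amino-terminal propeptide of fibrillar procollagens, Adamts2 had 3.01 in the control and 2.30 in WRN-K577M, a ratio of -0.71 (error 0.20). Its dimmer probe was above background in the control alone. Adamts14 was near equal at -1.34 and -1.23, and Adamts3 was on neither array. Adamts10, which takes part in fibrillin microfibrils, had -1.49 in the control and -2.43 in WRN-K577M, a ratio of -0.93, and of -0.41 after normexp.

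Adamts17 and Adamts19 were above background in the control alone. Adamts19 gave -4.31 ± 0.27 in the control (SD, n = 9 spots) and -6.36 ± 0.35 in WRN-K577M, with 7 of 9 control spots and no WRN-K577M spot well above background. The software's error for that probe was 1.32. The bounds of both are close to 1, at least 1.16-fold lower for Adamts17 and 1.08-fold for Adamts19. Across the families, 5 of 53 members (9.43%) were above background in the control alone, against 3.46% of all named genes. The share of named genes above background in WRN-K577M alone was 0.978%. The members on neither array were Mmp7, Mmp10, Mmp12, Mmp13, Mmp16, Mmp20, Mmp21, Mmp25 and Mmp28, Adamts3, Adamts6, Adamts12, Adamts13, Adamts16, Adamts18 and Adamts20, and Adamtsl3. No ratio is given for them.

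Of the ADAMTS-like proteins, Adamtsl2, which binds fibrillin and latent TGF-beta binding protein, read 0.10 in the control and -1.35 in WRN-K577M. That is a ratio of -1.45 (error 0.21) or 2.74-fold lower. Adamtsl1 was dim, at -2.89 in the control and -3.70 in WRN-K577M, with a ratio of -0.81 that was -0.066 after normexp. Adamtsl4, which also binds fibrillin, was near equal at 2.59 and 2.53. Adamtsl5 was read by 2 probes with ratios of 0.21 and 0.41. So 1 of 4 measured members was at least 2-fold lower (3.45% over all measured genes), and the others lay within 2-fold on either side of 0.

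All 5 lysyl oxidases were measured. Lox, the founding member, was dim and higher in the WRN-K577M sample, with -3.49 in the control and -2.78 in WRN-K577M by its brighter probe. Its 2 probes gave ratios of 0.70 (error 0.26) and 0.90 (error 0.38). Loxl1, needed for elastic fibre upkeep, was lower by both its probes, with ratios of -0.45 and -0.46. Loxl3 had -1.45 in the control and -2.20 in WRN-K577M, a ratio of -0.75 (error 0.22), and of -0.27 after normexp. Loxl4 had -4.03 and -4.20, close to the background of both arrays. Lox and its relatives thus stood on opposite sides of 0, with 4 of 5 below (47.6% over all measured genes). Of these 4, Loxl4 changed sign under other settings.

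Loxl2, an oxidase of basement membrane collagen, was read by 3 probes that disagreed. The brightest gave 1.92 in the control and 0.60 in WRN-K577M, 2.49-fold lower. The second gave 0.97 and 0.98, a ratio of 0.015, and the third -1.02 and -1.57, a ratio of -0.55. The ratios of the first 2 differ by more than the software's error of 0.20 for each, so the count of 8 members at least 2-fold lower holds Loxl2 by 1 of its 3 probes. With the mean of its probes, Loxl2 had a ratio of -0.62. Which transcripts each probe reads was not analysed here. For the other 6 members with several measured probes the probes lay on the same side of 0.

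**Figure D4:**
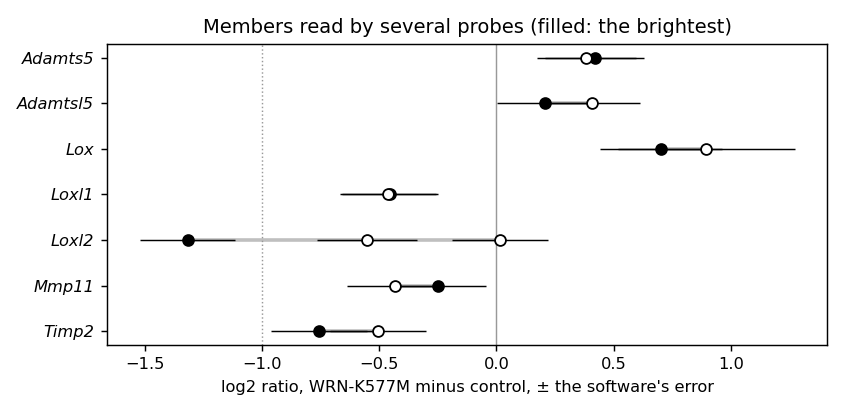
Log2 ratio (x axis, WRN-K577M minus control) of each measured probe of the 7 members that had more than 1, with the software's error as bars and the brightest probe filled. The 3 probes of Loxl2 spread from -1.32 to 0.015, while the probes of each of the other 6 members lie on the same side of 0.

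Other genes of matrix turnover were listed by class. Of the 56 genes 42 were measured, 27 of them below 0 (47.6% over all measured genes), with a median of -0.13 against 0.020. None of the 42 was at least 2-fold lower, against 3.45% of all measured genes. Plat, the tissue plasminogen activator, had a ratio of -0.33, and Plau, the urokinase, was above background in the control alone, at least 1.71-fold lower. In the same class Plaur and Serpine2 were near equal, with ratios of -0.013 and 0.0094. Reck, a membrane-bound inhibitor of metalloproteinases, had a ratio of -0.68, and Pcsk6, a proprotein convertase, of -0.76. Sparc, a collagen-binding matricellular protein, had -0.97. Pcolce, which speeds removal of the procollagen carboxy-terminal propeptide, had -0.88, and Bmp1, the protease that removes it, -0.53. By class, the medians were -0.22 over 10 membrane ADAM proteases, -0.57 over 4 astacin proteases and enhancers, 0.39 over 3 cystatins and -0.47 over 8 other regulators of metalloproteinases, and the transglutaminase Tgm2 had a ratio of -0.15. Cathepsins, lysosomal proteases, had 6 of 12 above 0 and a median of -0.0036, from -0.92 for Ctsc to 0.70 for Ctsl.

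Of 29 listed genes for substrates of these enzymes 24 were measured, 22 below 0 (47.6% over all measured genes), with a median of -0.59 against 0.020. At least 2-fold lower were 6 of the 24, and 3.45% of all measured genes. These were Col3a1 (ratio -2.29), Mfap4 (-2.04), Comp (-1.74), Col1a1 (-1.73), Col1a2 (-1.30) and Mfap2 (-1.1). Vcan, versican, the sole hyalectan measured, was near equal at -0.34 in the control and -0.46 in WRN-K577M, while Acan and Bcan were above background in the control alone, at least 1.25-fold and 2.02-fold lower. The basement membrane collagens Col4a1 and Col4a2 had ratios of -0.22 and -0.21.

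The 2 samples differed in markers of several tissues and cell types beside these genes. For the counts below, 47.6% of all measured genes lay below 0 and 3.45% were at least 2-fold lower. All 8 cardiomyocyte markers were measured, with ratios between 0.00074 for Ryr2 and 0.25 for Myl3, and the log2 of their summed level was 12.1 in the control and 12.3 in WRN-K577M. Of 8 fibroblast markers 7 were below 0 and 5 at least 2-fold lower, with log2 summed levels of 8.17 and 7.77, while Pdgfra (-0.18), Dcn (-0.059) and Tcf21 (0.25) were near equal. Col1a1 and Mfap4 stand in both this list and that of the substrates. All 7 macrophage markers were below 0, with 5.31 and 4.59. Lung epithelial markers were above background in the control, and 5 of 6 were not so in WRN-K577M, the sixth being Scgb1a1 at 5.76 and -2.02, with log2 summed levels of 7.06 and -1.63. All 4 measured adipocyte markers and all 5 atrial markers were at least 2-fold lower, with log2 summed levels of 4.66 and 1.65 for fat and 9.35 and 7.29 for atrium. The atrial sum rests most on Nppa, the brightest of that list on both arrays, with a ratio of -1.06. Sln, Myl7, Myl4 and Dkk3 had ratios of -9.41, -7.39, -7.12 and -2.93, and the atrial median was -7.12. Of 5 endothelial markers 3 were above 0 (median 0.021). Of 4 smooth muscle markers 3 were below 0 (median -0.79), namely Cnn1 (-1.26), Tagln (-0.94) and Myh11 (-0.63), and 1 was above, Acta2 (0.85). All 3 erythroid markers were at least 2-fold lower (median -2.84). The medians were 0.26 over 2 endocardial and 0.31 over 4 epicardial and mesothelial markers, and of the cartilage markers Sox9 alone was measured (0.51). The part of these tissues and cells in the lower levels of the protease, inhibitor and oxidase genes was not tested, and with 1 sample per group it and the genotype cannot be told apart.

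**Figure D5:**
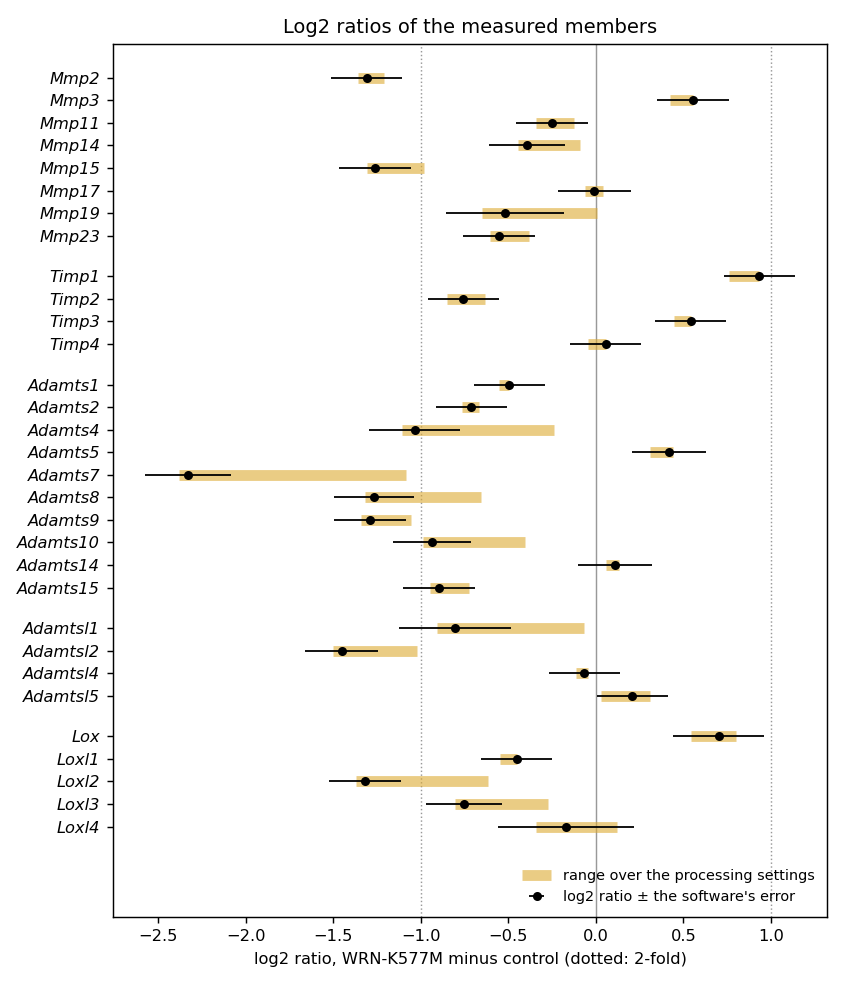
Log2 ratio of each of the 31 measured members (points, WRN-K577M minus control) with the software's error as black bars, and the range over the processing settings as a yellow band. Dotted lines mark 2-fold. Adamts7, Adamts9, Adamtsl2 and Mmp2 stay left of the 2-fold line in every setting, while the bands of Adamts4, Adamts8, Mmp15 and Loxl2 cross it.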

How the data were processed

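Total RNA of heart was labelled with Cy3. Spot files deposited by the authors hold processed signal intensity from Agilent Feature Extraction, version 11.5.1.1 in the submitters' processing notes. Per the file headers this intensity is background-subtracted, detrended and unscaled between arrays. The series matrix deposited by the authors holds the same intensity times 1 factor per array, 4.12 for the control and 4.86 for WRN-K577M, with medians of 79.5 and 79.0. It is linear and not centred by gene, and the sources used here do not say how the factors were chosen.

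Control spots and 257 outlier spots were left out, and no spot was saturated. The 75th percentiles subtracted were 256 and 210. A total of 55.2% of probes in the control and 52.9% in WRN-K577M were well above background, in the majority of a probe's spots where it had several. Accessions without versions were matched to a RefSeq table of GRCm38.p6. The design is annotated on mm9, per the file headers, so gene coordinates are not given, and promoter coordinates are those of the RefSeq promoter table. The members and lists were chosen with earlier results of these data known. Every member may be named, and of the other lists at most 5 genes each with the largest ratios and the defining markers. Plat, Plau, Plaur, Serpine2, Reck, Bmp1, Ctsl, Tgm2, Mfap2, Vcan, Acan, Bcan, Col4a1, Col4a2 and Mpo were named after their values were seen. A gene of the matrix turnover list is not reported here. Fold counting was run on simulated ratios with planted changes past the threshold and noise of the size of the spot spread. That checks the counting code alone, since it held no choice of probe, background flag or scaling. Calculations used Python 3.11.15, numpy 2.4.6, pandas 2.3.3, matplotlib 3.10.9, R 4.3.3 and limma 3.58.1.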

Additional observations from a re-analysis of the deposited data

How the results depend on the processing

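The results were recomputed with normexp (offset of 50), with quantile or cyclic loess scaling, with each array set to its median or to the 75th percentile of probes above background, with looser and stricter limits on dim probes, with probes averaged per gene, on the series matrix, at 1.5-fold and 3-fold, and, chosen after seeing the data, with bounds included. Normexp started from the median spot and background signals, not from the processed signal. It left 5 members at least 2-fold lower (1.40% of all measured genes) and a median of -0.24. Without a filter on dim probes 4 of 53 members were at least 2-fold higher and 11 lower, against 5.8% and 5.05% of all genes. The median was then -0.17 over the 53 members and 0.12 over all genes. None of the 4 higher members was well above background on either array. At 1.5-fold, 2 members were higher and 14 lower, against 6.76% and 9.15% of all measured genes. At 3-fold 1 was lower, against 1.1%. Under the other settings the count of lower members ran from 7 to 9, that of higher members was 0, and the median lay between -0.58 and -0.52. Over all genes counted in those settings, 2.92% to 4.19% were at least 2-fold lower and 1.62% to 2.3% higher. Over the main and 9 other settings, 27 members kept their sign and 4 did not (Loxl4, Mmp17, Mmp19 and Timp4, all within 1.5-fold as reported). Adamts7, Adamts9, Adamtsl2 and Mmp2 were at least 2-fold lower in each. No paired analysis was possible because each group holds 1 sample. The number of arrays and, for dim genes such as Adamts4, Adamts8 and Adamtsl1, the signal over background limit precision.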
